A study of Mus musculus with 9 samples.

Results

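The genes described here are 10 endothelial transcripts, Pecam1, Cdh5, Kdr, Flt1, Tek, Tie1, Emcn, Eng, Plvap and Vwf. They were taken by symbol from the gene-name column of the count tables, and all 10 were among the 42454 names listed and among the 18243 names tested. RNA of whole tumours grown by MC38 cells, a mouse colorectal carcinoma line, in C57BL/6J mice was sequenced at day 21 after inoculation. In 5 tumours CD43 had been knocked out in the implanted cells (CD43-KO), and in 4 tumours the cells carried a vector only (Vec, genotype WT in the labels). Total counts ranged from 44814061 to 62194418 in CD43-KO tumours and from 60751738 to 72114385 in Vec tumours. The labels place the knockout in the implanted cells, name host mice of the same strain for both groups, and do not say whether the knockout line was 1 clone. CD43, encoded by Spn, is a sialomucin of leukocytes. Nothing in the labels says that each tumour had its own host, so p-values measure the spread between these samples.

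Endothelial cells line blood vessels, and in a transplanted tumour the vessels are built by the host. Their growth is driven by VEGF acting through KDR, while FLT1 binds the same ligand and also exists as a soluble form that traps it. Angiopoietins act through TEK, and TIE1 modulates that receptor. Junction proteins such as CDH5 hold the cells together, and PLVAP, EMCN and VWF are carried in varying amounts by different kinds of vessel.

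CD43-KO replicate 3 stood apart from the other 8 tumours, lying at 100 on the first principal component of log2 CPM (34.9% of variance), where the others lay between -45.64 and 51.17. Its 7 skeletal muscle markers, led by Acta1 and Ckm, summed to 1156 counts scaled to library size (CPM, with TMM factors), while the rest of the CD43-KO group had 68.6 to 118 CPM and Vec tumours 83.9 to 102 CPM. Its 5 adipocyte markers, led by Cfd and Adipoq, summed to 453 CPM, while the rest of the CD43-KO group had 3.24 to 8.87 CPM and Vec tumours 10.8 to 31.3 CPM. It also had the lowest total count and the highest leukocyte sum of the 9. The targeted gene Spn was at 25.6, 33.6, 31.2, 23.0 and 6.81 CPM in CD43-KO replicates 1 to 5, against 41.0, 43.7, 44.6 and 53.8 CPM in Vec replicates 1 to 4. Each CD43-KO tumour was below all Vec tumours in Spn, with a log2 fold change of -0.93 ± 0.36 (SE, edgeR adjusted p = 0.280).

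For none of the 10 genes was the difference between CD43-KO and Vec tumours larger than the spread between tumours by the tests used. The coefficient of variation was larger in CD43-KO than in Vec tumours in 9 of the 10 genes, all but Flt1. For how large a share of all genes this holds was not computed. The wider spread was not limited to these genes. On the first principal component, over all genes tested, CD43-KO tumours ran from -24.36 to 100. Vec tumours ran there from -45.64 to 2.127. CD43-KO replicate 2 had the highest level of the 9 tumours in 7 of the genes and CD43-KO replicate 4 the lowest in 9. The summed level of the 10 genes was 231.9, 274.4, 212.5, 134.2 and 169.0 CPM in CD43-KO replicates 1 to 5, against 173, 190, 195 and 172 CPM in Vec replicates 1 to 4. The mean was 204 ± 54.6 CPM in CD43-KO tumours (SD, n = 5) and 182 ± 11.8 CPM in Vec tumours (SD, n = 4). Thus 3 CD43-KO tumours lay above all Vec tumours, 2 lay below all of them, and the groups overlapped. In whole tissue, fewer cells of a type and less RNA per cell cannot be told apart.

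**Figure D1:**
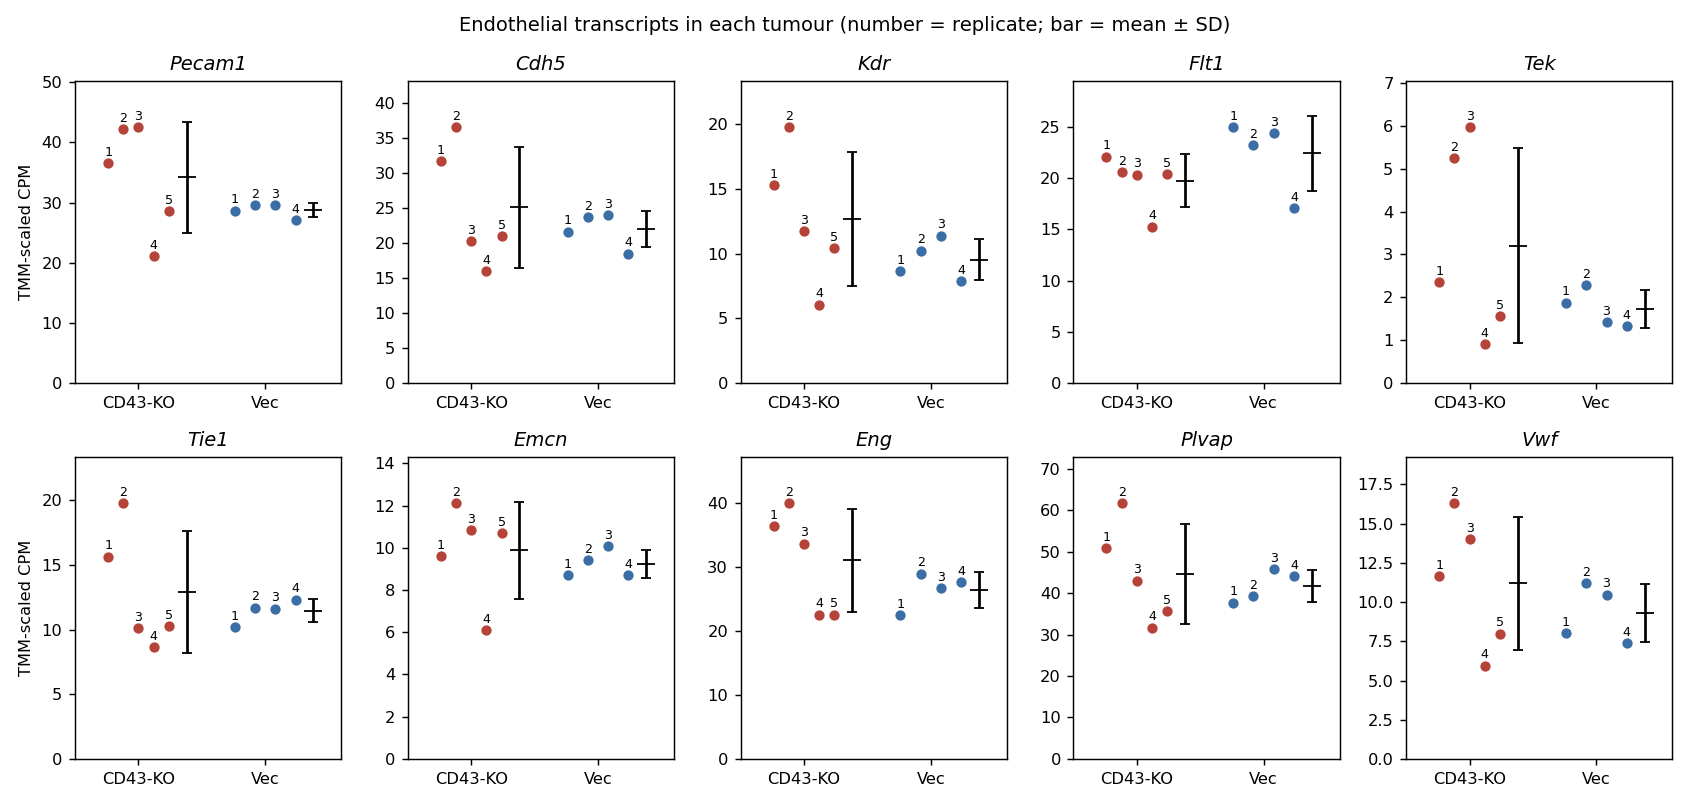
Level of each endothelial gene in each tumour, in TMM-scaled CPM on axes that start at 0. Numbered points are replicates, with CD43-KO left of Vec, and the bar beside each group is its mean ± SD; replicate 4 of CD43-KO is the lowest of its group in all genes but Eng, where replicate 5 is level with it.

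The quasi-likelihood test of edgeR called 0 of the 10 genes at an adjusted p of 0.05, as it called 0% of all genes tested. At an unadjusted p under 0.05 it also gave 0 of 10, against 15.4% of all genes (7.75% higher and 7.63% lower in CD43-KO). Without CD43-KO replicate 4, Pecam1, Kdr and Tek passed that unadjusted threshold (all higher), and without Vec replicate 4 Flt1 did (lower). DESeq2 and limma voom with sample weights called 0 of 10 each, against 3.66% (1.48% higher and 2.18% lower) and 3.08% of the genes they tested. The edgeR log2 fold change, CD43-KO over Vec, was above 0 in 9 of 10 genes, against 54% of all genes, and the median over the 10 was 0.21, against 0.03 over all genes. These genes share their tumours, so their signs are not independent. In 0 of 10 did all CD43-KO values lie above, or all lie below, all Vec values, against 2.08% and 3.5% of all genes. The median was 0.14 without CD43-KO replicate 1, 0.06 without replicate 2, 0.18 without replicate 3 and 0.32 without replicate 4. Of the 10 genes, 7 were above 0 without replicate 2.

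**Figure D2:**
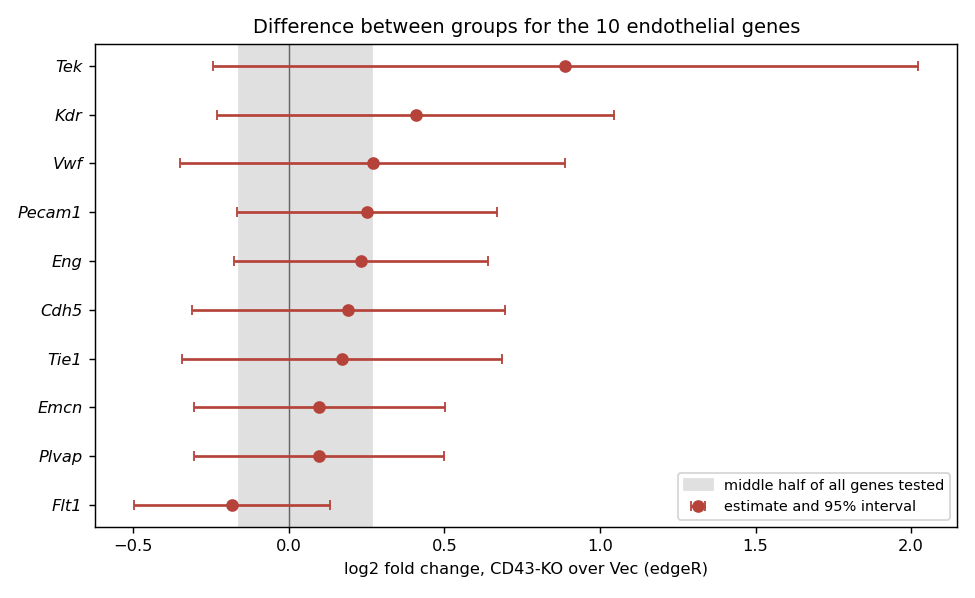
edgeR log2 fold change (CD43-KO over Vec) of each endothelial gene with its 95% interval, CD43-KO being higher in 9 of 10 genes. The grey band runs between the quartiles of all 18243 genes tested, -0.16 and 0.27; every interval includes 0, and that of Tek is the widest of the 10.

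Of the VEGF receptors, Kdr varied over a 3.26-fold range between tumours while Flt1 varied over 1.63-fold. Kdr (chr5:75932827-75978458, minus strand; all gene positions are GENCODE M21 on GRCm38) encodes VEGFR2, the main signalling receptor for VEGF. It was at 15.3, 19.8, 11.8, 6.06 and 10.4 CPM in CD43-KO replicates 1 to 5, against 8.65, 10.2, 11.4 and 7.87 CPM in Vec replicates 1 to 4. Replicates 1, 2 and 3 of CD43-KO lay above all Vec tumours and replicate 4 below them. On the log2 scale the fold change was 0.41 ± 0.29 (SE; 95% interval -0.23 to 1.05; edgeR adjusted p = 0.503), and permuting the tumours (exact test on mean log2 CPM, both sides) gave p = 0.349. The fold change was 0.19 without CD43-KO replicate 2 and 0.58 without replicate 4.

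Flt1 (chr5:147561604-147726011, minus strand), which encodes VEGFR1, was at 22.1, 20.6, 20.3, 15.3 and 20.4 CPM in CD43-KO replicates 1 to 5, against 24.9, 23.2, 24.3 and 17.1 CPM in Vec replicates 1 to 4. It was the gene of the 10 with a mean lower in CD43-KO tumours, and no CD43-KO tumour exceeded all Vec tumours. In edgeR the log2 fold change was -0.18 ± 0.14 (SE; 95% interval -0.50 to 0.13; edgeR adjusted p = 0.546; exact permutation p = 0.286). It was -0.30 without Vec replicate 4 (exact permutation p = 0.0536) and -0.10 without CD43-KO replicate 4. Counts per gene cannot separate the membrane and the soluble form of Flt1.

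The ratio of Kdr to Flt1 counts within a tumour does not depend on how libraries are scaled. It was 0.691, 0.961, 0.578, 0.397 and 0.510 in CD43-KO replicates 1 to 5, against 0.347, 0.441, 0.468 and 0.462 in Vec replicates 1 to 4. In 4 of 5 CD43-KO tumours the ratio was above that of every Vec tumour, and replicate 4 lay within the Vec range. The ratio averaged 0.627 ± 0.215 in CD43-KO tumours (SD, n = 5) and 0.429 ± 0.056 in Vec tumours (SD, n = 4). It was chosen after the values were seen, so no test is given.

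The 250 bases before the RefSeq starts of the VEGF receptor genes and of Tek are shown because Tek and Kdr varied most of the 10 between tumours (6.61-fold and 3.26-fold between the lowest and highest CPM) and Flt1 least. Capitals mark AGGAAG on either strand, a sequence that holds the GGAA core bound by ETS factors, a family with several members in endothelial cells. It occurs in 29.5% of the 32851 promoter windows of the same length.
Kdr (chr5:75978456-75978705, - strand): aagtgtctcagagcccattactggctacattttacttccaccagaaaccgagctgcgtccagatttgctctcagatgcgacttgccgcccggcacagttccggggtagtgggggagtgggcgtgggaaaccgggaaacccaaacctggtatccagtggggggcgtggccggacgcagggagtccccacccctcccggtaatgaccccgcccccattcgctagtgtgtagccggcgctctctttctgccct
Flt1 (chr5:147726012-147726261, - strand): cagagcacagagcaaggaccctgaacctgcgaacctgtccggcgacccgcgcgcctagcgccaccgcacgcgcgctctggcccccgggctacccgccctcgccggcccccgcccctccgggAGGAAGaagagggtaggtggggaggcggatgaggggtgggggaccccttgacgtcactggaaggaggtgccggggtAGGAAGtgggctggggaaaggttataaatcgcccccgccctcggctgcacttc
Tek (chr4:94739039-94739288, + strand): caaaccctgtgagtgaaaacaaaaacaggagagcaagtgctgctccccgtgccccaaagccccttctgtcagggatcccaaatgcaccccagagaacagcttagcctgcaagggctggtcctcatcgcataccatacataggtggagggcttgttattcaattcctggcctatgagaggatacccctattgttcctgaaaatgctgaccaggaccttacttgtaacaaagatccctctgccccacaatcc
The Flt1 window held 2 matches, and the Kdr and Tek windows 0 each. Of the 6 windows available, 4 held a match (Eng, Emcn, Tie1 and Flt1). Longer sequences with the GGAA core were searched too. CAGGAAGT and CCGGAAGT were in 0 of the 6 windows each, and in 2.69% and 2.88% of all windows. AACAGGAA was in 1 of the 6 (Emcn) and in 2.25% of all windows. A link between matches and the variation of a gene was not tested. A TATAAA, present in 12.4% of all windows on either strand, was found in Flt1 and in none of the other 5 windows available for these genes (Eng, Emcn, Tek, Tie1 and Kdr). GGAA alone occurred in all 6 windows and in 93.4% of all windows. These are matches of letters in RefSeq GRCm38.p6 sequence, not sites of binding.

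Of the TIE receptors, Tek had the largest edgeR fold change and the fewest counts of the 10 genes, between 53 and 340 per tumour. It lies at chr4:94739289-94874976 (plus strand) and encodes TIE2, the angiopoietin receptor, which is also made by a subset of monocytes. It was at 2.35, 5.24, 5.97, 0.90 and 1.57 CPM in CD43-KO replicates 1 to 5, against 1.88, 2.28, 1.42 and 1.33 CPM in Vec replicates 1 to 4. Replicates 2 and 3 of CD43-KO were far above all Vec tumours, replicate 1 was just above them and replicate 4 below. Its log2 fold change was 0.89 ± 0.51 (SE; 95% interval -0.25 to 2.02; edgeR adjusted p = 0.417; exact permutation p = 0.349). It was 0.54 without CD43-KO replicate 3, 1.13 without replicate 4 and 0.37 with voom, where Kdr, at 0.46, was larger.

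Tie1 (chr4:118471191-118490061, minus strand), an orphan receptor that pairs with TIE2, did not follow Tek in CD43-KO replicate 3. It was at 15.7, 19.8, 10.1, 8.65 and 10.3 CPM in CD43-KO replicates 1 to 5, against 10.2, 11.7, 11.6 and 12.3 CPM in Vec replicates 1 to 4. Replicates 3 and 4 of CD43-KO lay below all Vec tumours, and replicates 1 and 2 above them. On the log2 scale the fold change was 0.17 ± 0.23 (SE; 95% interval -0.34 to 0.68; edgeR adjusted p = 0.738; exact permutation p = 0.706), and it was -0.04 without CD43-KO replicate 2 and 0.29 without replicate 4. The ratio of Tek to Tie1 counts was 0.150, 0.265, 0.589, 0.104 and 0.153 in CD43-KO replicates 1 to 5, against 0.184, 0.195, 0.122 and 0.108 in Vec replicates 1 to 4.

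Transcripts of junction and surface proteins of the vessel wall differed from each other in CD43-KO replicate 3. Pecam1 (chr11:106654217-106750628, minus strand) encodes CD31, an adhesion molecule of endothelial junctions that platelets and many leukocytes also carry. It was at 36.5, 42.2, 42.5, 21.1 and 28.5 CPM in CD43-KO replicates 1 to 5, against 28.7, 29.6, 29.5 and 27.1 CPM in Vec replicates 1 to 4. Replicates 1 to 3 of CD43-KO were above all Vec tumours, which lay close together. In edgeR the log2 fold change was 0.25 ± 0.19 (SE; 95% interval -0.17 to 0.67; edgeR adjusted p = 0.531; exact permutation p = 0.405). It was 0.15 without CD43-KO replicate 3 and 0.38 without replicate 4.

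Cdh5 (chr8:104101625-104144511, plus strand) encodes VE-cadherin, the adherens junction protein that is among the most restricted to endothelium. It was at 31.7, 36.5, 20.3, 15.96 and 20.97 CPM in CD43-KO replicates 1 to 5, against 21.6, 23.7, 24.03 and 18.5 CPM in Vec replicates 1 to 4. Only replicates 1 and 2 of CD43-KO exceeded all Vec tumours, and replicate 3 lay within their range. Its log2 fold change was 0.19 ± 0.23 (SE; 95% interval -0.31 to 0.69; edgeR adjusted p = 0.699; exact permutation p = 0.611), and it was 0.02 without CD43-KO replicate 2 and 0.32 without replicate 4. The ratio of Pecam1 to Cdh5 counts was 2.096 in CD43-KO replicate 3, while the rest of its group had 1.155 to 1.36 and Vec tumours 1.23 to 1.46.

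**Figure D3:**
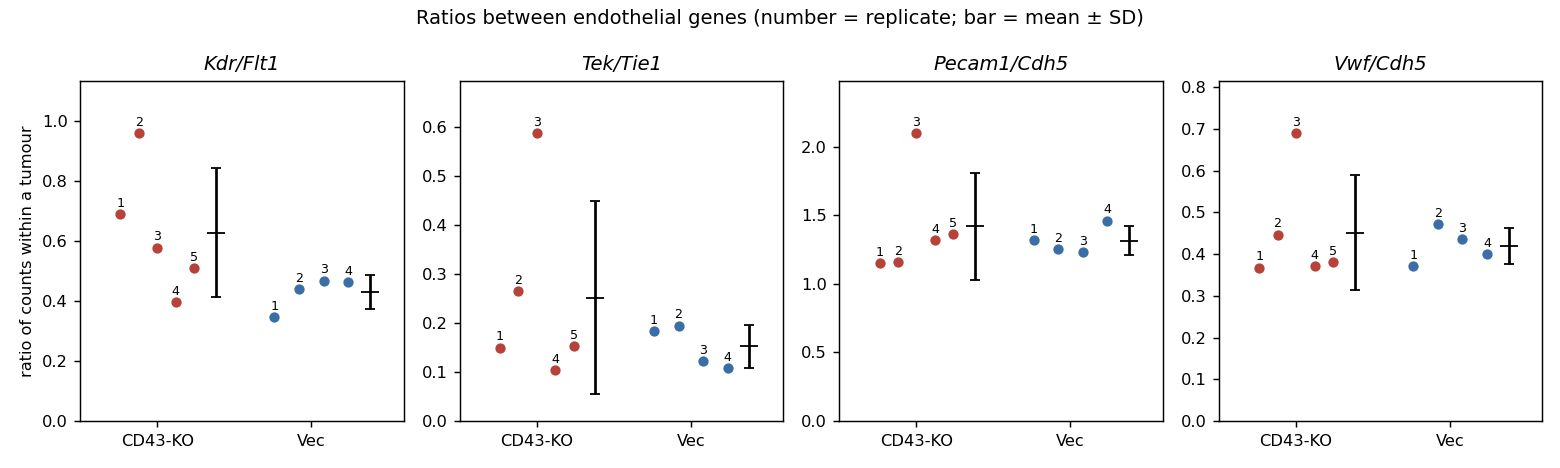
Ratios of the counts of endothelial genes within each tumour, CD43-KO left of Vec, numbered by replicate, with the mean ± SD beside each group. Kdr/Flt1 is above every Vec tumour in 4 of 5 CD43-KO tumours, while Pecam1/Cdh5 and Vwf/Cdh5 stand out in CD43-KO replicate 3, at 2.096 and 0.691.

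Endoglin, encoded by Eng (chr2:32646595-32682669, plus strand), is a coreceptor for BMP9 and TGF-beta that is also made by macrophages and stromal cells. It was at 36.3, 40.0, 33.7, 22.6 and 22.5 CPM in CD43-KO replicates 1 to 5, against 22.5, 28.9, 26.6 and 27.6 CPM in Vec replicates 1 to 4. Replicates 1 to 3 of CD43-KO lay above all Vec tumours, and replicates 4 and 5 were level with the lowest Vec tumour. On the log2 scale the fold change was 0.23 ± 0.18 (SE; 95% interval -0.18 to 0.64; edgeR adjusted p = 0.556; exact permutation p = 0.357), with values of 0.12 without CD43-KO replicate 2 and 0.33 without replicate 5. Its exons overlap those of Fpgs on the opposite strand over 61 bases, 1.51% of its exonic length, and Fpgs averaged 44.3 CPM. No exon of the other 9 genes overlaps another annotated exon in GENCODE M21.

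Plvap (chr8:71497765-71511752, minus strand) forms the diaphragms of fenestrated and tumour vessels. It was at 50.8, 61.8, 43.0, 31.7 and 35.7 CPM in CD43-KO replicates 1 to 5, against 37.7, 39.2, 45.7 and 44.2 CPM in Vec replicates 1 to 4. Replicates 4 and 5 of CD43-KO lay below all Vec tumours and replicates 1 and 2 above. Its log2 fold change was 0.10 ± 0.18 (SE; 95% interval -0.31 to 0.50; edgeR adjusted p = 0.817; exact permutation p = 0.778), with values of -0.05 without CD43-KO replicate 2 and 0.20 without replicate 4.

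Emcn (chr3:137341067-137432185, plus strand) encodes endomucin, a sialomucin of capillary and venous endothelium. It was at 9.60, 12.1, 10.8, 6.11 and 10.7 CPM in CD43-KO replicates 1 to 5, against 8.70, 9.40, 10.1 and 8.72 CPM in Vec replicates 1 to 4. CD43-KO replicate 4 was far below the other 8 tumours. Replicates 3 and 5 of CD43-KO were just above all Vec tumours, and replicate 2 lay further above them. In edgeR the log2 fold change was 0.10 ± 0.18 (SE; 95% interval -0.31 to 0.50; edgeR adjusted p = 0.814; exact permutation p = 0.833). It was 0.01 without CD43-KO replicate 2, where the difference in mean log2 CPM was -0.02, and 0.23 without replicate 4.

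Vwf (chr6:125546774-125686679, plus strand) encodes von Willebrand factor, the clotting protein stored in endothelial granules and in platelets. It was at 11.7, 16.3, 14.0, 5.94 and 7.99 CPM in CD43-KO replicates 1 to 5, against 8.04, 11.2, 10.5 and 7.39 CPM in Vec replicates 1 to 4. Replicates 1 to 3 of CD43-KO lay above all Vec tumours and replicate 4 below. Its log2 fold change was 0.27 ± 0.28 (SE; 95% interval -0.35 to 0.89; edgeR adjusted p = 0.656; exact permutation p = 0.548), with values of 0.09 without CD43-KO replicate 2 and 0.43 without replicate 4. The 10 exact tests form a family and are given without adjustment, and the smallest p that splits of these tumours allow is 0.00794.

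**Figure D4:**
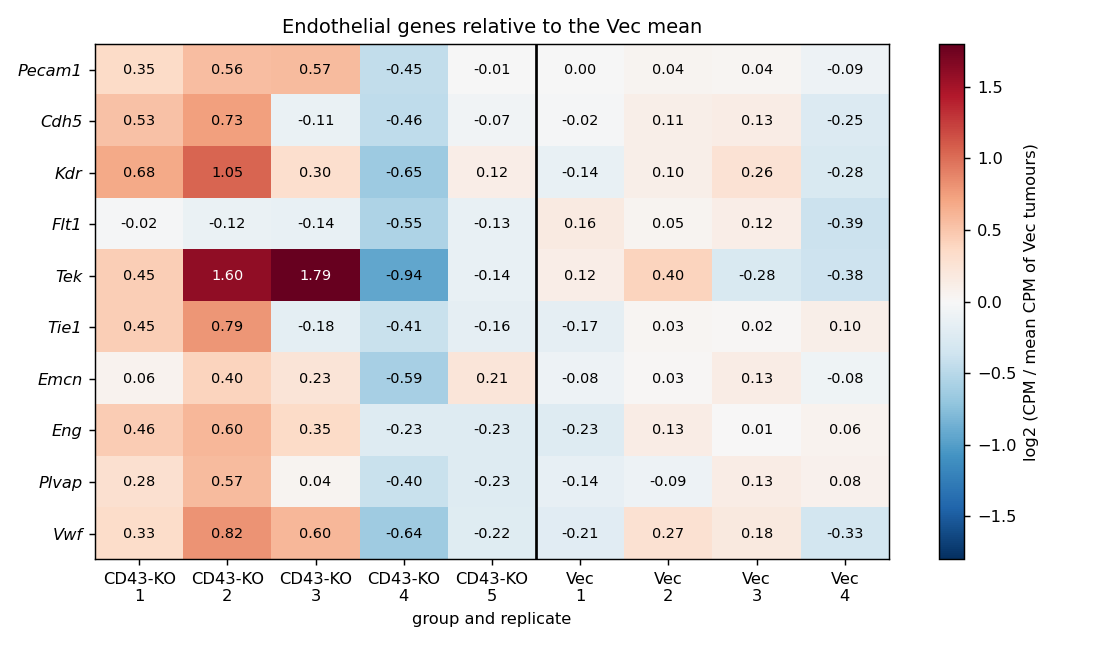
Level of each endothelial gene in each tumour as log2 of its CPM over the mean CPM of the Vec tumours, with the value in each cell and CD43-KO replicates left of the black line. All 10 genes are below the Vec mean in CD43-KO replicate 4, 9 are above it in replicates 1 and 2, and Flt1 is the exception in both.

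Per kilobase of exon, the order of the genes by mean level was the same in both groups. Plvap was highest, at 22.4 ± 6.08 CPM per kilobase in CD43-KO tumours and 21.0 ± 1.93 in Vec tumours (SD, n = 5 and 4). Eng followed at 7.66 ± 1.99 in CD43-KO and 6.52 ± 0.69 in Vec tumours, then Cdh5 at 5.97 ± 2.05 in CD43-KO and 5.23 ± 0.61 in Vec tumours. Pecam1 was at 5.49 ± 1.49 CPM per kilobase in CD43-KO and 4.61 ± 0.19 in Vec tumours. In CD43-KO tumours Eng and Cdh5, and Cdh5 and Pecam1, differed by less than 1 SD. Tie1 was at 2.63 ± 0.95 in CD43-KO and 2.33 ± 0.18 in Vec tumours and Emcn at 1.83 ± 0.42 in CD43-KO and 1.71 ± 0.12 CPM per kilobase in Vec tumours.

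The VEGF receptors lay below these on the same scale. Flt1 was at 1.46 ± 0.19 CPM per kilobase in CD43-KO and 1.66 ± 0.27 in Vec tumours, and Kdr at 1.40 ± 0.57 in CD43-KO and 1.06 ± 0.17 in Vec tumours. Flt1 and Kdr differed by less than 1 SD in CD43-KO tumours and by more in Vec tumours, where Flt1 and Emcn differed by less than 1 SD. In CD43-KO tumours Tie1 and Emcn differed by less than the SD of Tie1, and Emcn and Flt1 by less than that of Emcn. Vwf and Tek differed by less than 1 SD in CD43-KO tumours, so their order there is not firm. Vwf and Tek were lowest, Vwf at 0.70 ± 0.26 in CD43-KO and 0.58 ± 0.12 in Vec tumours, and Tek at 0.68 ± 0.48 in CD43-KO and 0.37 ± 0.09 CPM per kilobase in Vec tumours. Lengths are the union of all exons in GENCODE M21, so exons outside the main transcript lower a gene's value.

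The genes varied together across the 9 tumours, with Flt1 least tied to the rest. Over the 45 pairs, Pearson's r of log2 CPM had a median of 0.782 and ran from 0.133 to 0.946. Between each gene and the mean of the other 9, r was 0.957 for Vwf, 0.950 for Kdr, 0.946 for Pecam1 and 0.417 for Flt1. These values are a description over 9 tumours that share library and scaling. Of 12440 other genes, those with the pattern most like the mean of the 10 were Clec14a (r = 0.987) and Mmrn2 (r = 0.970), which encode an endothelial lectin-like receptor and its extracellular ligand. They were followed by Agap2, Ccdc8, Rnf141, Fam78a, Zc3h12d, P2ry13, Emc9 and Abcg1, with r between 0.942 and 0.959. Over the 24 other pan-endothelial genes listed, the median r was 0.752, against -0.05 over the 12440 genes. Among the 24, r ran from -0.138 for Nos3 to 0.987 for Clec14a. The most abundant of them, Cd34 and Ecscr, had r of -0.0609 and 0.0816. The median r was 0.762 over angiopoietin and VE-PTP genes and 0.126 over partners of endoglin. It was -0.0226 over VEGF ligands and other receptors, 0.0421 over Notch, tip cell and arteriovenous genes and -0.0194 over haemostasis genes. It was 0.768 over the leukocyte markers and 0.786 over the macrophage markers.

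Other genes of the vessel wall gave no calls in edgeR either, as it called 0% of all genes tested. The counts given for these lists stand against 54% of all genes above 0. Of all genes, 15.4% had an unadjusted p under 0.05 (7.75% higher and 7.63% lower), and DESeq2 called 3.66%. Of 24 further pan-endothelial genes, 15 had a log2 fold change above 0 and 9 below, with a median of 0.14, and 1 in each direction, Fli1 higher and Cd34 lower, had an unadjusted p under 0.05. The most abundant was Cd34, a sialomucin also made by stromal and progenitor cells, at 732 ± 48.1 CPM in CD43-KO and 847 ± 27.4 CPM in Vec tumours (-0.21 ± 0.08 SE on the log2 scale, edgeR adjusted p = 0.285). Ecscr, a regulator of endothelial migration, was at 48.4 ± 11.7 CPM in CD43-KO and 43.0 ± 5.82 CPM in Vec tumours. Cd93, a receptor that binds MMRN2 and is shared with myeloid cells, was at 47.3 ± 12.96 CPM in CD43-KO and 35.1 ± 5.10 CPM in Vec tumours (0.43 ± 0.20 log2, edgeR adjusted p = 0.328).

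Among VEGF ligands and the remaining receptors, 5 of 8 had a log2 fold change above 0 and 3 below, with a median of 0.08, and 1 (Vegfb, lower) had an unadjusted p under 0.05. Vegfa, the main ligand of KDR and FLT1, was at 326 ± 88.3 CPM in CD43-KO and 348 ± 43.2 CPM in Vec tumours (-0.10 ± 0.20 log2, edgeR adjusted p = 0.833). Vegfb, which binds FLT1 but not KDR, was at 37.9 ± 6.04 CPM in CD43-KO and 49.8 ± 8.92 CPM in Vec tumours (-0.39 ± 0.15 log2, unadjusted p = 0.0225, edgeR adjusted p = 0.273). The coreceptor gene Nrp2 was at 188 ± 32.2 CPM in CD43-KO and 164 ± 27.6 CPM in Vec tumours.

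Of the 4 angiopoietin and VE-PTP genes, 3 were above 0, with a median of 0.49, and 1 (Angpt1, higher) had an unadjusted p under 0.05. Angpt2, a TIE2 ligand released by activated endothelium, was at 10.97 ± 4.85 CPM in CD43-KO and 11.3 ± 2.51 CPM in Vec tumours. Ptprb, the phosphatase that restrains TIE2, was at 7.77 ± 2.34 CPM in CD43-KO and 6.93 ± 1.299 CPM in Vec tumours, and Angpt4 at 1.56 ± 0.92 CPM in CD43-KO and 0.883 ± 0.288 CPM in Vec tumours.

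The 13 genes of Notch signalling, tip cells and arteriovenous identity divided into 5 above 0 and 8 below, with a median of -0.06, and 4 had an unadjusted p under 0.05 (Aplnr higher, and Nr2f2, Efnb2 and Apln lower). Ephb4, a venous receptor, was at 72.6 ± 12.95 CPM in CD43-KO and 75.7 ± 7.01 CPM in Vec tumours, and the Notch ligand gene Jag1 at 45.8 ± 5.45 CPM in CD43-KO and 46.9 ± 10.98 CPM in Vec tumours. Notch1 was at 41.2 ± 4.25 CPM in CD43-KO and 36.6 ± 8.47 CPM in Vec tumours. DESeq2 called 1 of the 13, Nr2f2, a transcription factor of venous identity that stromal cells also make (27.1 ± 4.79 CPM in CD43-KO and 38.9 ± 5.82 CPM in Vec tumours). It was named after its values were seen, with a DESeq2 adjusted p of 0.0403 and an edgeR adjusted p of 0.202.

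Of the partners of endoglin, 6 of 7 tested were above 0, with a median of 0.11, and Gdf2 and Bmp10 did not pass the filter. Tgfbr2, a TGF-beta receptor, was at 76.2 ± 18.8 CPM in CD43-KO and 62.4 ± 7.09 CPM in Vec tumours, and Bmpr2, a BMP receptor, at 67.8 ± 8.38 CPM in CD43-KO and 63.0 ± 14.5 CPM in Vec tumours. Smad7, an inhibitor of the pathway, was at 50.9 ± 10.8 CPM in CD43-KO and 47.9 ± 3.57 CPM in Vec tumours.

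Of the haemostasis genes, 5 of 7 tested were above 0, with a median of 0.13, Procr and Mmrn1 were higher at an unadjusted p under 0.05, and Adamts13 did not pass the filter. Fli1, Angpt1, Aplnr, Efnb2, Apln, Procr and Mmrn1 were named after their values were seen. Plat, a plasminogen activator, was at 58.5 ± 7.23 CPM in CD43-KO and 63.9 ± 10.9 CPM in Vec tumours, and Tfpi, an inhibitor of the tissue factor pathway, at 38.6 ± 5.37 CPM in CD43-KO and 37.8 ± 3.50 CPM in Vec tumours.

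Leukocyte transcripts were also more spread in CD43-KO than in Vec tumours. The 8 leukocyte markers summed to 597 to 1957 CPM in CD43-KO tumours, against 605 to 810 CPM in Vec tumours. All 8 had a log2 fold change above 0, against 54% of all genes. edgeR called 0 of them, as it called 0% of all genes tested. At an unadjusted p under 0.05, 3 were higher, against 7.75% of all genes. The leukocyte gene Ptprc was at 85.3, 108.5, 148.4, 37.1 and 64.5 CPM in CD43-KO replicates 1 to 5, against 42.7, 50.6, 61.7 and 35.9 CPM in Vec replicates 1 to 4. Replicate 4, the CD43-KO tumour lowest in endothelial transcripts, was thus also the lowest of its group in Ptprc.

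Correlations with Ptprc over the 9 tumours were computed for all 10 genes, with exact permutation p adjusted over these 10 relations. Both groups were pooled and tumours were permuted without regard to group, so a difference between groups enters r and p. Ptprc had a log2 fold change of 0.89 ± 0.35, CD43-KO over Vec (SE, edgeR adjusted p = 0.283). Both genes of a relation also share library and scaling. Pecam1 gave Pearson's r = 0.915 (exact p = 0.000361, adjusted 0.00361) and Spearman's rho = 0.867 (exact p = 0.00451, adjusted 0.0121), and r = 0.797 without CD43-KO replicates 2 and 3, the tumours farthest from the median of Ptprc. Pearson's r passed after adjustment also for Kdr (0.791), Tek (0.883), Emcn (0.743), Eng (0.740) and Vwf (0.862), with exact permutation p between 0.00178 and 0.0246 (adjusted 0.00891 to 0.041). Without the same 2 tumours these were 0.932, 0.603, 0.674, 0.564 and 0.749. By Spearman's rho, Kdr (0.917), Tek (0.850), Emcn (0.883) and Vwf (0.850) also passed after adjustment (0.0121 each), and Eng did not (rho = 0.600, exact p = 0.0968, adjusted 0.161). For Cdh5, Plvap, Tie1 and Flt1, r was 0.567, 0.590, 0.436 and 0.267, with exact permutation p from 0.0941 to 0.489. Without the same 2 tumours, r was 0.864 for Cdh5, 0.553 for Plvap, 0.629 for Tie1 and 0.536 for Flt1, so which genes passed rests in part on those tumours. How large a share of all genes would pass the same test against Ptprc was not computed, so passing cannot be called particular to these genes. Each group alone holds fewer than 6 tumours, so no value within a group is given.

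Markers of further cell types give the setting of these values. The 8 macrophage markers summed to 753 to 2576 CPM in CD43-KO tumours, against 911 to 1157 CPM in Vec tumours, with C1qb and C1qa the most abundant. All 8 had a log2 fold change above 0, against 54% of all genes, with a median of 0.61. Of these, 2 were higher at an edgeR unadjusted p under 0.05, against 7.75% of all genes. The 11 mural cell markers are of the pericytes and smooth muscle around vessels. They summed to 291 to 360 CPM in CD43-KO tumours, against 268 to 316 CPM in Vec tumours. Cspg4 and Pdgfrb were the most abundant, and 7 had a log2 fold change above 0 and 4 below. At an edgeR unadjusted p under 0.05, Mcam and Myh11 were higher and Pdgfrb lower, against 7.75% and 7.63% of all genes. Pearson's r with the mean of the endothelial genes had a median of 0.656 over the mural markers, against -0.0491 over all genes ranked. It was -0.311 for Cspg4 and -0.256 for Pdgfrb, and highest, at 0.89, for Rgs5. Mcam, Myh11 and Rgs5 were named after their values were seen. The 5 lymphatic markers summed to 87.8 to 168 CPM in CD43-KO tumours, against 100.4 to 117 CPM in Vec tumours, most of it Pdpn, which fibroblasts also make, and Ccl21a. Prox1, the defining lymphatic factor, averaged 0.354 CPM in CD43-KO and 0.233 CPM in Vec tumours and was at 0 in CD43-KO replicate 3.

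The 8 platelet and megakaryocyte markers summed to 45.3 to 162 CPM in CD43-KO tumours, against 47.1 to 60.0 CPM in Vec tumours, mostly Pf4, which macrophages can also make, and Itgb3, followed by Itga2b at 5.48 CPM in CD43-KO and 6.30 CPM in Vec tumours and Gp1bb at 3.26 CPM in CD43-KO and 2.86 CPM in Vec tumours. Of the others, Gp1ba, Ppbp and Treml1 were under 1 CPM on average in both groups, and Gp9 did not pass the filter. The 7 fibroblast markers, led by Col3a1 and Col1a2, summed to 2014 to 5515 CPM in CD43-KO tumours, against 2916 to 4192 CPM in Vec tumours. The 5 erythroid markers, led by Hbb-bs and Hba-a1, summed to 70.3 to 316 CPM in CD43-KO tumours, against 89.4 to 337 CPM in Vec tumours. Epithelial markers were low, with a sum of 7.87 to 15.8 CPM in CD43-KO and 8.78 to 15.6 CPM in Vec tumours, mostly Cdh1, then Krt19, and Krt8 and Krt18 did not pass the filter. MC38 is known as a carcinoma line, and of the 3 epithelial markers tested only Cdh1 was above 1 CPM on average. Platelets and leukocytes carry some of the same transcripts, and the part of other cells in the endothelial values was not tested.

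**Figure D5:**
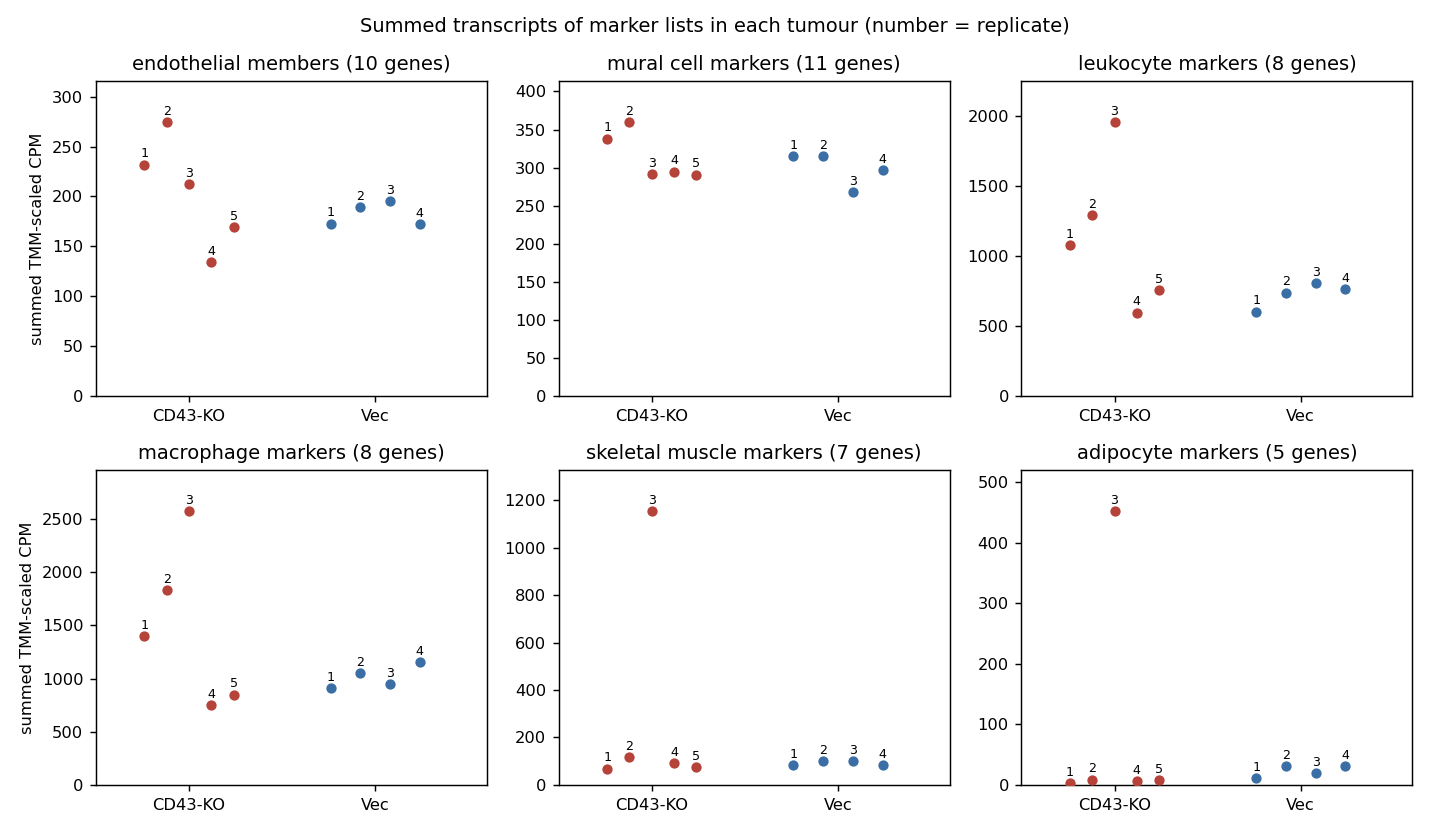
Summed TMM-scaled CPM of the endothelial genes and of marker lists for 5 further cell types in each tumour, on axes from 0, with CD43-KO left of Vec and numbers for replicates. Among CD43-KO replicates 1, 2, 4 and 5 the endothelial, leukocyte and macrophage sums have the same order, while replicate 3 is highest in leukocyte and macrophage sums and has muscle and adipocyte sums of 1156 and 453 CPM.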

How the data were processed

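Bulk RNA of 9 tumours was measured, with a raw count for each gene name in a separate file per tumour, as the authors deposited them. The submitters' processing notes name HISAT2 2.1.0, StringTie 1.3.5, DESeq2 and the build GRCm38, without role or order. How reads were assigned to genes, with which annotation and strand setting, is not stated in the labels. Genes passed filterByExpr (minimum count 10, minimum total 15). The main test was edgeR 4.0.16's quasi-likelihood F test with TMM scaling and robust estimation (R 4.3.3), adjusted by Benjamini-Hochberg over all genes tested, with a threshold of 0.05. Each SE was derived from the F statistic and the log2 fold change. The fits were tested on simulated data. Alternatives were DESeq2 1.42.0, voom of limma 3.58.1, other scalings and filters, and leaving out each tumour. Log2 CPM used a prior count of 2. All 36 pairs of libraries differed by more than counting noise (smallest chi-square 35.7 per degree of freedom).

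The members and lists were chosen with earlier results of these data known. All 10 members are named. Of each pathway list the 3 most abundant genes, and of each marker list the 2 most abundant, are named, with the 10 genes of at least 1 CPM most correlated with the members. A gene that this rule names among the haemostasis genes is not reported here. Coordinates and exon lengths are from GENCODE M21 (GRCm38), and promoter windows from RefSeq GRCm38.p6, which held 6 of the 10 genes. Replicates are numbered in accession order.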

Additional observations from a re-analysis of the deposited data

Results flagged for a closer look

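Values were looked at for single tumours that lie far from the rest of their group (Dixon's ratio of gap to range), in 54 groups of values, and 6 stood out. For independent groups fixed in advance, chance alone would mark about 1 in 20. These groups share tumours and genes, and were chosen with earlier results known. The 6 therefore cannot be set against that share. In CD43-KO replicate 4, Flt1 had 15.26 CPM, while the rest of its group had 20.3 to 22.1 CPM. The other 5 all concern CD43-KO replicate 3. Its ratio of Pecam1 to Cdh5 counts was 2.096, where the rest of its group had 1.155 to 1.36, and its ratio of Vwf to Cdh5 counts was 0.691, against 0.368 to 0.447. Its lymphatic marker sum was 168 CPM, against 87.8 to 108 CPM. Most of it was Pdpn, at 157 CPM, while Prox1 was at 0 in this tumour. Its skeletal muscle marker sum was 1156 CPM, against 68.6 to 118 CPM, and its adipocyte marker sum was 453 CPM, against 3.24 to 8.87 CPM.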

How the results depend on the processing

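The count of endothelial genes called was 0 under all 16 alternatives run (3 scalings, 2 filters, 2 tools and 9 tumours left out in turn). The median log2 fold change of the 10 genes was 0.20 with RLE or upper-quartile factors and with DESeq2, 0.30 with total counts only, 0.21 without a filter, 0.22 with the stricter filter and 0.24 with voom. Over the 9 tumours left out it ran from 0.06 (without CD43-KO replicate 2) to 0.32 (without CD43-KO replicate 4). Without CD43-KO replicate 2 the direction turned for Tie1 (-0.0353, with 0.2862 as its highest value, without replicate 4) and for Plvap (-0.04965, with 0.1974 as its highest). With total counts only, the median of all genes was 0.11. Over all genes, where edgeR called 0, 612 were called by DESeq2, 562 by voom and 1 without a filter, and between 0 and 29 with a tumour left out, 29 of them without Vec replicate 3 and 1 each without CD43-KO replicate 2 and Vec replicate 2. No paired analysis was possible because replicate numbers follow accession order and link no tumours across groups. Tek, with 53 counts in its lowest tumour, is the member for which depth limits precision most.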
